A study of Rattus norvegicus with 6 samples.

Results

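The genes described are those of laminins, nidogens, agrin, integrins, dystroglycan and sarcoglycans, found by their symbols in the deposited table of rat brain mural cells. Of 14607 genes in that table, 37 matched: 10 laminin chains, 2 nidogens (Nid1 and Nid2), agrin, 19 integrin subunits, dystroglycan and 4 sarcoglycans. A further 10 symbols of the same families, among them Hspg2 (perlecan), Itgam, Itgal, Lamb3, Itga2 and Itgb5, had no row and were not analysed here. RNA-Seq was carried out on freshly isolated cells of the cortex of male Sprague-Dawley rats of 4 to 5 weeks, with 3 samples of vascular smooth muscle cells (VSMCs) and 3 of mid-capillary pericytes (mcPCs) from 3 isolations that each pooled several animals. VSMCs were sorted positively, with a lectin, from arterioles that had been digested a further time with harsher enzymes, after removal of cells bearing CD31 or CD11b (the product of Itgam). They may hold some ensheathing pericytes. mcPCs were what remained of the capillary filtrate once cells bearing CD31, CD11b, GLAST or O4 had been removed, so that any unlabelled cell type stayed with them. No treatment or genetic change of the rats is named, and the comparison asks which genes set the mural cells of arterioles apart from those of capillaries. Digestion and sorting differed along with cell type, so that their effects cannot be told apart from those of cell type.

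Laminins are cross-shaped trimers of an alpha, a beta and a gamma chain which polymerise into the sheet on which a basement membrane is built. Nidogens link that sheet to type IV collagen, and agrin, a heparan sulfate proteoglycan, ties laminin to the cell surface. Cells hold on to laminin through integrins, which are dimers of an alpha and a beta subunit, and through dystroglycan, which sarcoglycans flank within the dystrophin complex of muscle. In the brain, mural cells are embedded in a basement membrane shared with the endothelium and bordered by astrocyte endfeet.

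The values are the authors' means of each cell type, and values per sample were not used here, so that no SD between isolations and no test over samples can be given. Differences below are log2 of the mean normalized counts in mcPCs over those in VSMCs, with a pseudocount of 1, and are negative where VSMCs are higher. Intervals are exact 95% intervals of the ratio of reads, and cover counting error only. Summed over genes, the means come to a mean depth of 62.0 M reads for a VSMC sample and 48.0 M for one of mcPCs. Abundances per gene length are given in TPM, in which counts are divided by gene length and scaled so that every library has the same total. Globin and other erythrocyte transcripts held 66.9% of the TPM in mcPCs and 0.878% in VSMCs, so that TPM of nearly any other gene reads low in mcPCs. The median gene of the table was at -1.72 on the log2 ratio of TPM and at 0.01 on that of normalized counts. For this reason TPM is used below for the order of genes within a cell type, and normalized counts for differences between the cell types. Sums of TPM over marker lists, given for both cell types, are on the deposited scale and do not measure such differences. All 7 smooth muscle markers were at least 2-fold higher in VSMCs, with Acta2 at -7.99, all 6 capillary pericyte markers were at least 2-fold higher in mcPCs, with Kcnj8 at 6.17. Of 5 markers of both kinds of mural cell, Mcam and Notch3 were at -1.11 and -1.31, Pdgfrb was at 1.17, and Cspg4 and Rgs5 differed by less than 2-fold.

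The promoters of 28 of the 37 members had an entry in the RefSeq table used here (GRCr8 build, another assembly than the Rnor_6.0 of the reads). The 250 bases before the start of Lama5 and Itga8, which were far higher in VSMCs, and of Lama2 and Lamb1, which were higher in mcPCs, are shown because these genes carry the main contrast. They are written 5′ to 3′ along the gene's strand, with matches to the CArG box, the element bound by serum response factor in smooth muscle genes, and to the GC box GGGCGG in capitals, on either strand.
Lama5 (chr3:187695975-187696224, minus strand): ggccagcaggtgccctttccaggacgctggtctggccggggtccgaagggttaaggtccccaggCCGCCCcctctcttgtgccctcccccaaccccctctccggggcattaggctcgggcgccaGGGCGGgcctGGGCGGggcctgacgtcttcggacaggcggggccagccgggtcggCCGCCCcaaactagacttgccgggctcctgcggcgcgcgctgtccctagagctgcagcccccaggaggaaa
Itga8 (chr17:80410634-80410883, minus strand): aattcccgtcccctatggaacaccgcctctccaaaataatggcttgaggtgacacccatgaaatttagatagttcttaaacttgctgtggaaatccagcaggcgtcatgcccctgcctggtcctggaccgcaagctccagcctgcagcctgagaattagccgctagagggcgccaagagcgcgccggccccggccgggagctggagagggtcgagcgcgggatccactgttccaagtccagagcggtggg
Lama2 (chr1:19491896-19492145, plus strand): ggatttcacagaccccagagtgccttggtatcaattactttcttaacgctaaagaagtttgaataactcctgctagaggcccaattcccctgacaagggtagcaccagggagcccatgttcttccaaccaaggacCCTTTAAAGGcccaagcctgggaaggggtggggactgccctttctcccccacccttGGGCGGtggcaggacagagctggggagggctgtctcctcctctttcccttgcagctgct
Lamb1 (chr6:53562846-53563095, plus strand): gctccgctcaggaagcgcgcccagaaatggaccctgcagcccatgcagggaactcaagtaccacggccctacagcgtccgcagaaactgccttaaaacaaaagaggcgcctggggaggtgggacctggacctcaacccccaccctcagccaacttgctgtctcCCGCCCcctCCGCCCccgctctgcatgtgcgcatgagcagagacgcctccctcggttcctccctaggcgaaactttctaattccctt
The CArG box was sought only in the strict form CCWWWWWWGG, where W is A or T, and looser forms were not counted. Within this window only the Lama2 promoter, of the 28 read, held such a CArG box, which began 115 bases before the start. The box was found in 1.5% of all 33469 promoters of the table. A GC box was present in 14 of the 28, or 50%, against 30.5% of all promoters. It occurred in 2 of the 8 promoters of members higher in VSMCs and in 5 of the 9 of members higher in mcPCs, and was most frequent, at 7 of 11, in those under 2-fold. The median share of G and C was 60% in the 28 promoters and 51.2% in all promoters, and the GC box counts do not allow for this. The 28 promoters differed widely in base composition, from 44.8% G and C in Lama1 to 72.8% in Lama5, and these are matches of letters only.

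Of the 37 members, 11 were at least 2-fold higher in VSMCs and 12 at least 2-fold higher in mcPCs, while 14 differed by less. Of all genes listed, 13.8% were at least 2-fold higher in VSMCs and 21.6% at least 2-fold higher in mcPCs, against 29.7% and 32.4% of the members. Taking both directions, 23 of the 37 members were past 2-fold, and 35.4% of all genes. Of the 32 members with at least 0.8 TPM in VSMCs, 11 were higher in VSMCs and 8 in mcPCs, where the shares of all such genes were 15.7% and 13%, or 28.7% in both directions. All 37 had a mean of at least 10 reads per sample over the cell types, and the shares of all such genes past 2-fold were 14.1% on the VSMC side and 21.2% on the mcPC side, or 35.3% together. On the ratio of TPM as deposited, where the median gene is at -1.72, the same counts were 23 and 5. The median difference of the members was -0.06, close to that of all genes, and their range ran from -6.98 for Lama3 to 8.31 for Itgb7. Laminin chains and integrin alpha subunits past 2-fold lay on both sides, whereas nidogens, agrin and integrin beta subunits past 2-fold were all higher in mcPCs and sarcoglycans past 2-fold all higher in VSMCs. In bulk RNA, fewer cells of a type and less RNA per cell cannot be told apart.

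**Figure D1:**
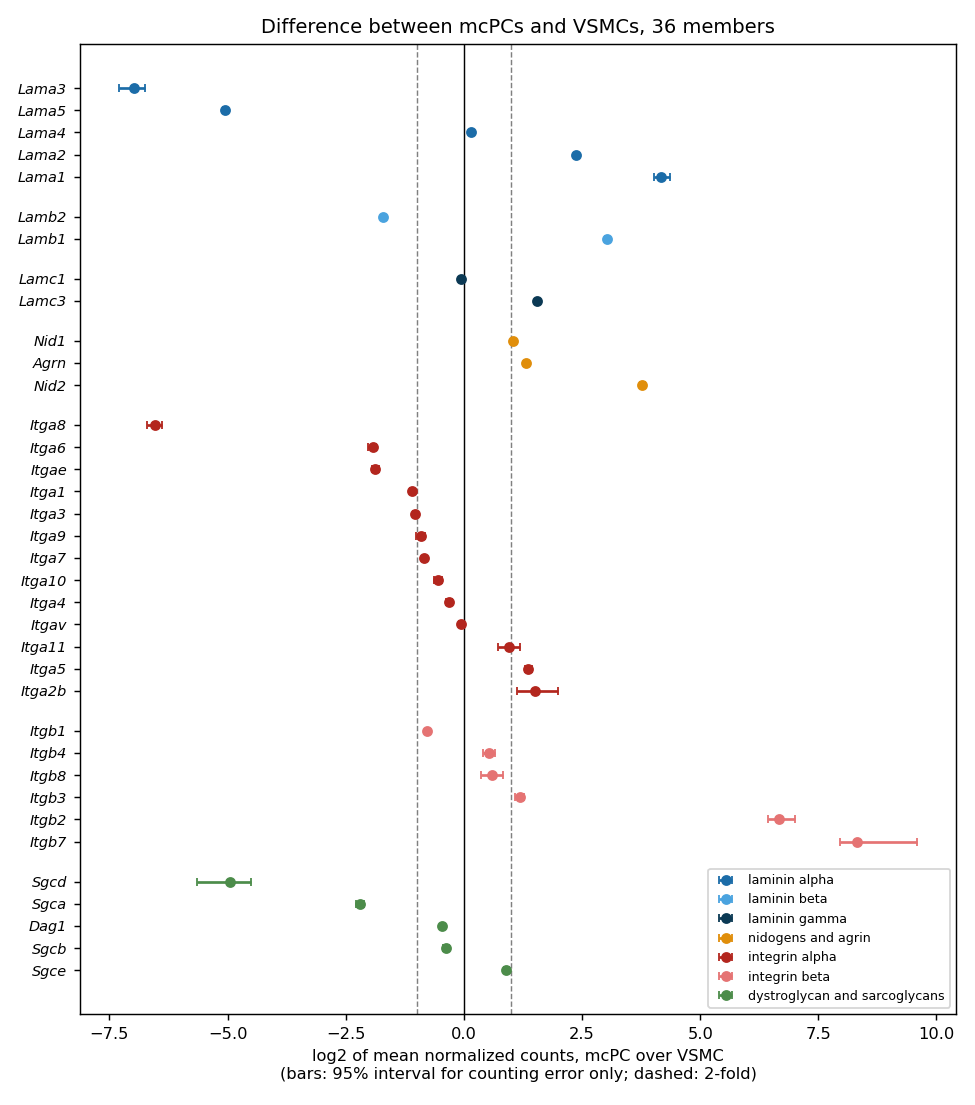
Log2 difference in mean normalized counts between mcPCs and VSMCs (x axis) for 36 members (y axis), coloured by family, with bars for the 95% counting interval and dashed lines at 2-fold. Lama3, Itga8 and Lama5 lie farthest to the VSMC side, at -6.98, -6.54 and -5.06, and Itgb7 and Itgb2 farthest to the mcPC side, at 8.31 and 6.66.

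Of the 5 laminin alpha chains, 2 were at least 2-fold higher in VSMCs and 2 in mcPCs. Lama5 (ENSRNOG00000053691), a laminin alpha chain of mature vessels, had a mean of 315 TPM in VSMCs against 2.67 TPM in mcPCs. These means came from 141372 reads per VSMC sample and 2226 per mcPC sample. Its difference was -5.06 (95% interval -5.10 to -5.03), or 33.4-fold. Lama3 (ENSRNOG00000011300), the alpha chain of the laminin of epithelial anchoring structures, had 79.3 TPM in VSMCs against 0.226 TPM in mcPCs. Its difference, of -6.98 (95% interval -7.29 to -6.75), was the lowest of the members and rested on 38.0 reads per mcPC sample. It was -6.58 on counts scaled without an erythrocyte list and -6.72 with a pseudocount of 10. On TPM centred on the median gene it was -6.21, beside -6.19 for Itga8. Each of these values of Lama3 lay outside its counting interval.

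Lama4 (ENSRNOG00000000599), the alpha chain typical of endothelial and mural basement membranes, was shared. It had 131 TPM in VSMCs against 41.4 TPM in mcPCs, with a difference of 0.16 (95% interval 0.14 to 0.17). Lama2 (ENSRNOG00000011134), the chain of muscle laminin that is mutated in a congenital muscular dystrophy, had 21.9 TPM in VSMCs against 32.1 TPM in mcPCs. Its normalized counts were 5.21-fold higher in mcPCs, with a difference of 2.38 (95% interval 2.36 to 2.40). Lama1, the chain of the early embryo, also favoured mcPCs, by 4.17 (95% interval 4.02 to 4.35). It had 1.33 TPM there and 0.255 TPM in VSMCs, or 4.03 and 0.257 TPM without globin and other erythrocyte transcripts.

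The makeup of the alpha chains within a cell type does not depend on how the cell types are scaled to each other. In VSMCs, Lama5 made up 57.5% of the summed alpha chain TPM, Lama4 24.0%, Lama3 14.5% and Lama2 4.00%. In mcPCs, Lama4 made up 53.3%, Lama2 41.3% and Lama5 3.44% (95% counting interval 3.35 to 3.52). The order of Lama5 and Lama2 was thus opposite. Lama5 was 14.4 times as abundant as Lama2 in VSMCs, and Lama2 12.01 times as abundant as Lama5 in mcPCs.

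Among the beta chains, Lamb2 (ENSRNOG00000047768), which is typical of muscle and vessel walls, was the most abundant member of all in VSMCs, with 1178 TPM, above 99.2% of the genes of the table. It had 101 TPM in mcPCs, and its difference was -1.72 (95% interval -1.73 to -1.71). Lamb1 (ENSRNOG00000005678), the beta chain of most other laminins, had 11.1 TPM in VSMCs against 25.5 TPM in mcPCs, with a difference of 3.02 (95% interval 2.98 to 3.06), or 8.11-fold. In both cell types Lamb2 was the more abundant, by 106-fold in VSMCs and by 3.97-fold in mcPCs, so that the share of Lamb1 among beta chains was 0.934% and 20.1%.

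Lamc1 (ENSRNOG00000002680), the gamma chain that most laminins share, had 575 TPM in VSMCs against 150.1 TPM in mcPCs. Its difference was -0.06 (95% interval -0.07 to -0.05). This value rests on the correction for transcript length, since the authors' mean effective length of Lamc1 was 3682 bases in VSMCs and 2242 bases in mcPCs, and on counts scaled without it, leaving out an erythrocyte list, Lamc1 was at -0.84. Only 3 of the 37 members, Lamc1, Sgcb and Lama3, had effective lengths that differed by more than 0.1 on the log2 scale, as did 6.18% of all genes. Lamc3 (ENSRNOG00000059507), a gamma chain known from the nervous system and retina, had 92.9 TPM in VSMCs against 76.6 TPM in mcPCs, and was 2.91-fold higher in mcPCs on normalized counts (difference 1.54, 95% interval 1.53 to 1.56). It made up 13.3% of the gamma chain TPM in VSMCs and 33.7% in mcPCs.

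**Figure D2:**
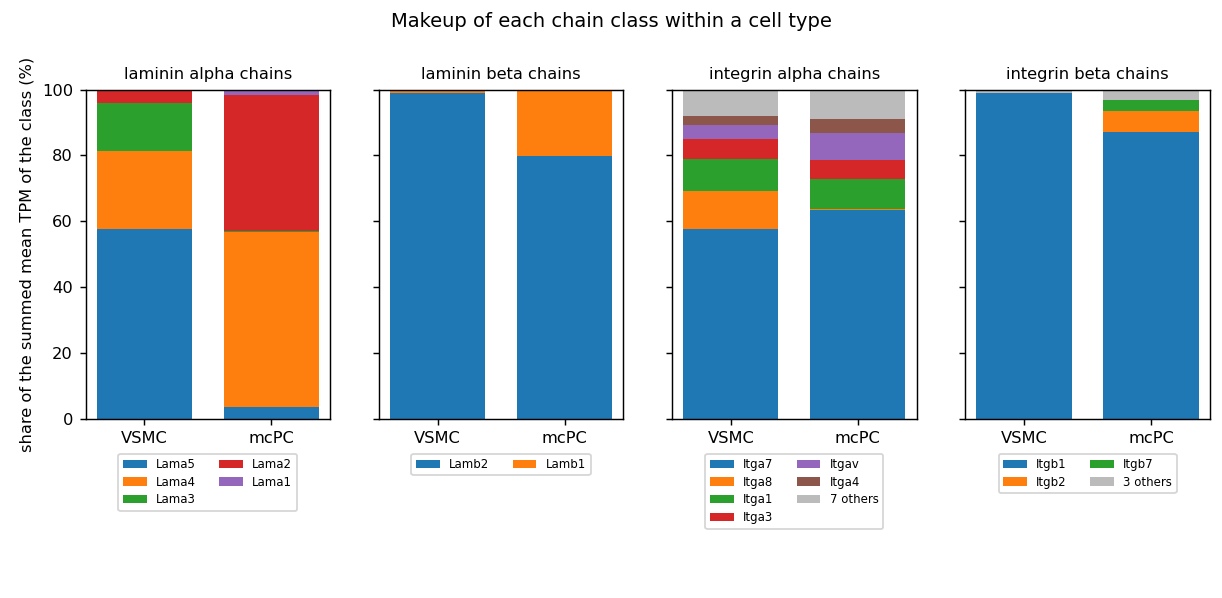
Share of each gene in the summed mean TPM of its chain class (y axis, percent) in VSMCs and mcPCs, for laminin alpha and beta chains and integrin subunits, with minor chains of a class pooled in grey. Lama5 fills 57.5% of the alpha chain bar in VSMCs and 3.44% in mcPCs, where Lama4 and Lama2 fill 53.3% and 41.3%, while Itga7 and Itgb1 lead their classes in both cell types.

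Transcripts of both nidogens and of agrin were higher in mcPCs on normalized counts. On TPM as deposited, Nid2 alone was higher there, and Nid1 and Agrn were at -0.79 and -0.51. Nid1 (ENSRNOG00000002461) had 263 TPM in VSMCs against 152 TPM in mcPCs, and its difference of 1.04 (95% interval 1.03 to 1.05) lay just past 2-fold. On TPM centred on the median gene it was 0.92. Nid2 (ENSRNOG00000000341), the second nidogen, had 6.57 TPM in VSMCs against 25.4 TPM in mcPCs, and its difference of 3.78 (95% interval 3.73 to 3.83) was 13.7-fold. Nid1 remained the more abundant nidogen, 40.03 times as abundant as Nid2 in VSMCs and 5.96 times in mcPCs. Agrn (ENSRNOG00000020205) had 218 TPM in VSMCs against 153 TPM in mcPCs, where it was the most abundant of the 37 members, above 98.4% of all genes. Its difference was 1.31 (95% interval 1.30 to 1.32).

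**Figure D3:**
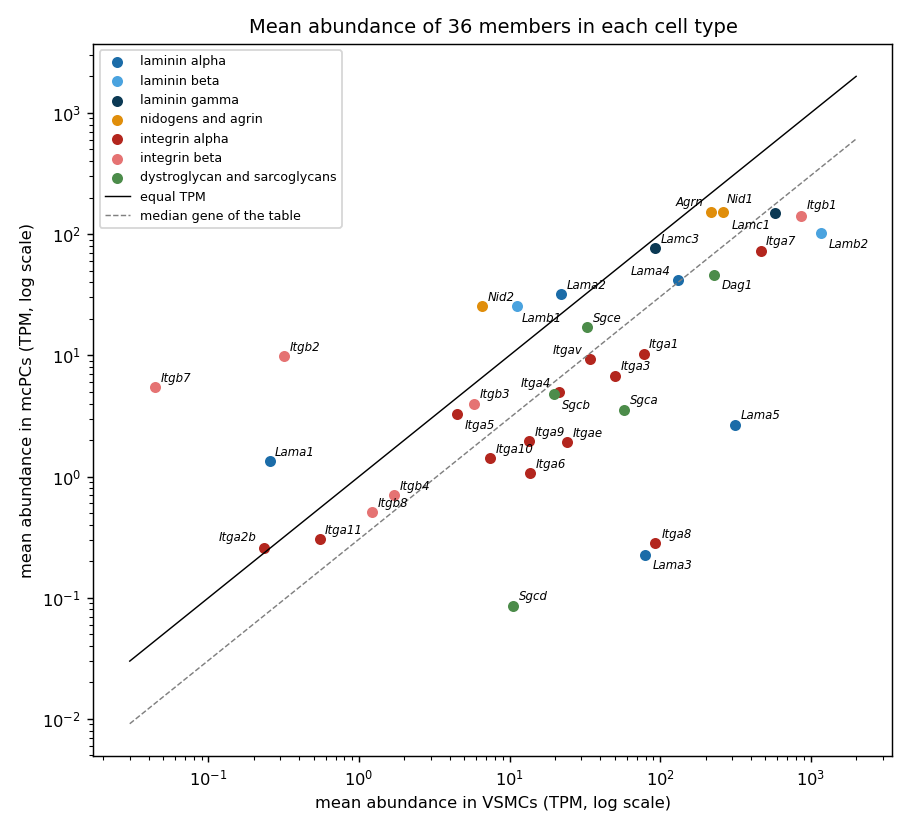
Mean abundance of 36 members in VSMCs (x axis, TPM, log scale) and mcPCs (y axis, TPM, log scale), with lines for equal TPM and for the median gene of the table. Nid2, Lamb1 and Lama2 are among those above the line of equal TPM, Lama4 and Lamc1 lie near the median gene, and Lama5, Itga8, Lama3 and Sgcd lie far below both lines.

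The integrin beta subunits were led by Itgb1 (ENSRNOG00000010966), the partner of the laminin and collagen binding alpha subunits, in both cell types. It had 861 TPM in VSMCs against 140.1 TPM in mcPCs, above 98.8% and 98.2% of all genes, and made up 98.96% and 87.2% of the beta subunit TPM. Its difference was -0.79 (95% interval -0.80 to -0.78), short of 2-fold. It was -0.90 on TPM centred on the median gene and -1.04 on TPM without globin and other erythrocyte transcripts. Itgb3, which pairs with Itgav and Itga2b to bind RGD-bearing ligands such as vitronectin, had 5.78 TPM in VSMCs against 3.97 TPM in mcPCs, and a difference of 1.18 (95% interval 1.08 to 1.28). The transcripts of Itgb4, the partner of Itga6 in hemidesmosomes, and Itgb8, an activator of TGF-beta, were scarce. They had 1.72 and 1.23 TPM in VSMCs and 0.702 and 0.507 TPM in mcPCs. Without globin and other erythrocyte transcripts these were 1.74 and 1.24 TPM in VSMCs and 2.13 and 1.54 TPM in mcPCs. Neither differed by 2-fold.

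Itgb2 (ENSRNOG00000001224), the beta subunit of leukocyte integrins, had 0.318 TPM in VSMCs against 9.87 TPM in mcPCs, and Itgb7, that of lymphocyte homing integrins, 0.0440 and 5.43 TPM. Their differences of 6.66 (95% interval 6.44 to 6.996) and 8.31 (95% interval 7.96 to 9.58) were the highest of all members on normalized counts. The value of Itgb7 depended on the scale and pseudocount, at 7.44 on counts without the erythrocyte list, 6.98 on centred TPM and 6.67 with a pseudocount of 10. Each of these lay outside its counting interval. With no pseudocount it was 8.71. Itgb2 was at 6.56 on counts without the erythrocyte list, inside its interval. It was at 6.29 on centred TPM and 6.26 with a pseudocount of 10, both outside. The pseudocount of 0.1 used for TPM is above the 0.0440 TPM of Itgb7 in VSMCs, so scale and pseudocount are not separated here. In VSMCs Itgb2 and Itgb7 rested on 36.8 and 4.67 reads per sample. Leukocyte markers moved the same way. Of a list of 15, 7 were in the table and all 7 were at least 2-fold higher in mcPCs, with summed levels of 5.75 TPM in VSMCs against 281 TPM in mcPCs. Ptprc (CD45) had 0.0659 and 15.1 TPM, and Laptm5 0.0533 and 38.2 TPM. The part of such cells in the values of Itgb2 and Itgb7 was not tested. Without these 2 genes the number of members at least 2-fold higher in mcPCs was 10 in place of 12.

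Among the integrin alpha subunits that bind laminin, Itga7 (ENSRNOG00000007905), the main alpha subunit of muscle, was the most abundant in both cell types. It had 463 TPM in VSMCs against 72.9 TPM in mcPCs, made up 57.8% and 63.6% of the alpha subunit TPM, and had a difference of -0.84 (95% interval -0.86 to -0.83). Itgb1 was 1.86 times as abundant as Itga7 in VSMCs and 1.92 times in mcPCs. Itga3 had 50.2 and 6.80 TPM, and its difference of -1.04 (95% interval -1.08 to -1.005) lay just past 2-fold. Itga6 had 13.7 and 1.07 TPM, with a difference of -1.93 (95% interval -2.02 to -1.85). All 3 laminin binding subunits thus had higher normalized counts in VSMCs, although Itga7 did not reach 2-fold. On TPM centred on the median gene Itga7 was at -0.95. On TPM without globin and other erythrocyte transcripts it was at -1.08, where the median of all genes was at -0.21.

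Of the subunits that bind collagen, Itga1, which prefers type IV collagen, had 77.7 TPM in VSMCs against 10.3 TPM in mcPCs, and was 2.16-fold higher in VSMCs (difference -1.11, 95% interval -1.14 to -1.08). Itga10 had 7.40 and 1.42 TPM and differed by -0.54, and Itga11, a subunit of fibroblasts, had 0.548 and 0.303 TPM and differed by 0.95 (95% interval 0.72 to 1.19). Neither reached 2-fold.

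The subunits that recognise RGD-bearing ligands split. Itga8 (ENSRNOG00000016538), which binds nephronectin and fibronectin and is known from smooth muscle and mesangial cells, had 91.7 TPM in VSMCs against 0.282 TPM in mcPCs. Its difference of -6.54 (95% interval -6.70 to -6.40) was 92.8-fold. It was the second most abundant alpha subunit in VSMCs, with 11.4% of the class, and made up 0.246% in mcPCs. Itgav, a partner of several beta subunits and part of the vitronectin receptor, had 34.1 and 9.31 TPM and a difference of -0.06 (95% interval -0.10 to -0.01). Itga5, the fibronectin receptor subunit, had 4.47 and 3.26 TPM and a difference of 1.37 (95% interval 1.29 to 1.45).

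Itga2b, the subunit of platelets, was 2.83-fold higher in mcPCs (difference 1.501, 95% interval 1.13 to 1.99) but had only 0.234 and 0.258 TPM, from 24.0 and 43.7 reads per sample. Of 11 platelet markers 2 were in the table, which holds only genes with a read in every sample of both cell types. These were Gp1ba at -0.73 and Tubb1 at 0.64, neither past 2-fold. They rested on 48.3 and 30.5 reads per VSMC sample and 16.7 and 24.5 per mcPC sample. The part of platelets in the value of Itga2b was not tested. Itga4 and Itga9, which bind VCAM1, fibronectin and other ligands, had differences of -0.31 and -0.91. Itgae, whose product is the CD103 of intraepithelial lymphocytes, had 24.0 TPM in VSMCs against 1.92 TPM in mcPCs. Its difference of -1.87 (95% interval -1.95 to -1.80) was opposite in direction to that of its partner Itgb7 and of the leukocyte markers.

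Dystroglycan and the sarcoglycans form the muscle-type link to laminin. Dag1 (ENSRNOG00000019400) had 228 TPM in VSMCs against 46.1 TPM in mcPCs, and its difference of -0.47 (95% interval -0.49 to -0.46) was 1.39-fold. Sgcd, a sarcoglycan of muscle and smooth muscle, had 10.6 and 0.0856 TPM and a difference of -4.94 (95% interval -5.64 to -4.51), from 9.34 reads per mcPC sample. It was at -4.70 on counts without the erythrocyte list, inside that interval. On centred TPM it was at -4.13 and with a pseudocount of 10 at -4.26, both outside. Sgca, the sarcoglycan typical of striated muscle, had 57.5 and 3.55 TPM and a difference of -2.20 (95% interval -2.29 to -2.11). The remaining pair did not reach 2-fold. Sgcb, present in all such complexes, had 19.8 and 4.77 TPM and a difference of -0.38 on the normalized counts. Its mean effective length was 2381 bases in VSMCs and 2985 in mcPCs, and on counts without the erythrocyte list, which take no account of length, it was at 0.06. Sgce, a widely expressed relative of Sgca, had 32.8 and 17.1 TPM and a difference of 0.90 (95% interval 0.85 to 0.95). Sgca was 1.75 times as abundant as Sgce in VSMCs, and Sgce 4.82 times as abundant as Sgca in mcPCs.

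Counts for further genes of the same machinery are to be read beside the 13.8% of all genes at least 2-fold higher in VSMCs and the 21.6% in mcPCs. Of 24 integrin activation and adhesion genes in the table, 6 were at least 2-fold higher in VSMCs and 5 in mcPCs, with a median difference of -0.46. Kank1, a partner of talin, was the lowest, at -6.02, and Fermt3, the kindlin of blood cells, the highest, at 6.15. The most abundant was the tetraspanin gene Cd81, with 745 TPM in VSMCs against 432 TPM in mcPCs. Of 8 genes of the dystrophin complex, 5 were at least 2-fold higher in VSMCs and 1 in mcPCs. The highest difference was 2.73, for Dtnb, a dystrobrevin with under 1 TPM in either cell type. Utrn (utrophin) was the most abundant of them, with 166 and 24.2 TPM, and was at -0.96.

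Of 13 genes that glycosylate dystroglycan so that it can bind laminin, 2 were higher in VSMCs and 4 in mcPCs, with B3galnt2 at -1.59 and Gyltl1b, at 0.120 TPM or less, at 2.72. The most abundant in VSMCs was Pomt2, with 39.0 TPM and a difference of -1.25. Of the 19 other basement membrane genes, 5 lay past 2-fold on the VSMC side and 5 on the mcPC side, with a median of -0.19. The 5 higher in mcPCs (Smoc1, Smoc2, Hmcn1, Fbln1 and Fbln2) were scarce there, at 0.331 to 3.84 TPM. As stated above, TPM reads low in mcPCs. Those higher in VSMCs included Col4a2, a type IV collagen chain, with 1295 TPM in VSMCs against 167 TPM in mcPCs and a difference of -1.13. Tinagl1, also among them, had 745 and 28.7 TPM and a difference of -2.85. These genes were named after their values were seen. They ran from -3.31 for Ntn4, a netrin that binds laminin, to 4.54 for Hmcn1, which had 0.331 TPM in mcPCs, and the most abundant was Sparc, with 2549 and 1407 TPM and a difference of 0.97.

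Of 13 other integrin ligands, 5 were higher in VSMCs and 7 in mcPCs. Vtn, the vitronectin bound by Itgav and Itgb3, was the most abundant, with 484 TPM in VSMCs against 1531 TPM in mcPCs and a difference of 3.50. Ltbp1, which tethers latent TGF-beta, was the lowest, at -4.94, and Cdh1, a ligand of Itgae with under 1 TPM in either cell type, the highest, at 4.01. Npnt (nephronectin), the ligand of Itga8, was at -4.34 and thus on the same side as its receptor subunit, with 73.3 TPM in VSMCs against 1.07 TPM in mcPCs. It was singled out after its value was seen. The laminin receptor gene Bcam, whose product binds the chain of Lama5, was at -1.64, with 1707 TPM in VSMCs against 153 TPM in mcPCs, and the ribosomal laminin receptor Rpsa at 0.05.

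Markers of other cell types, some of them known to make laminins and nidogens, were also detected in mcPCs. Of 12 endothelial markers 10 were in the table and 7 were at least 2-fold higher in mcPCs, with Cldn5 at 0.643 TPM in VSMCs against 15.4 TPM in mcPCs. Their summed levels, of 501 and 211 TPM, were mostly those of Esam, which mural cells also express. Of 8 fibroblast markers 7 were in the table and 6 were at least 2-fold higher in mcPCs, with sums of 147 and 193 TPM. Col1a1 held most of the VSMC sum (114 TPM, difference -0.13) and Slc6a13 most of the mcPC sum (132 TPM). Of 8 astrocyte markers 5 were in the table and 4 were at least 2-fold higher in mcPCs, with sums of 14.2 and 20.1 TPM. Here Aldoc held most of the VSMC sum (13.6 TPM, difference 0.16) and Slc1a3 most of the mcPC sum (12.7 TPM). Neurons gave 6 of 6 markers higher in mcPCs, oligodendrocytes 5 of 6, and microglia and macrophages 5 of 6. None of these lists had a marker at least 2-fold higher in VSMCs. The part of such cells in the members higher in mcPCs, such as Nid2, Lamb1, Lama2 and Lama1, was not tested.

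**Figure D4:**
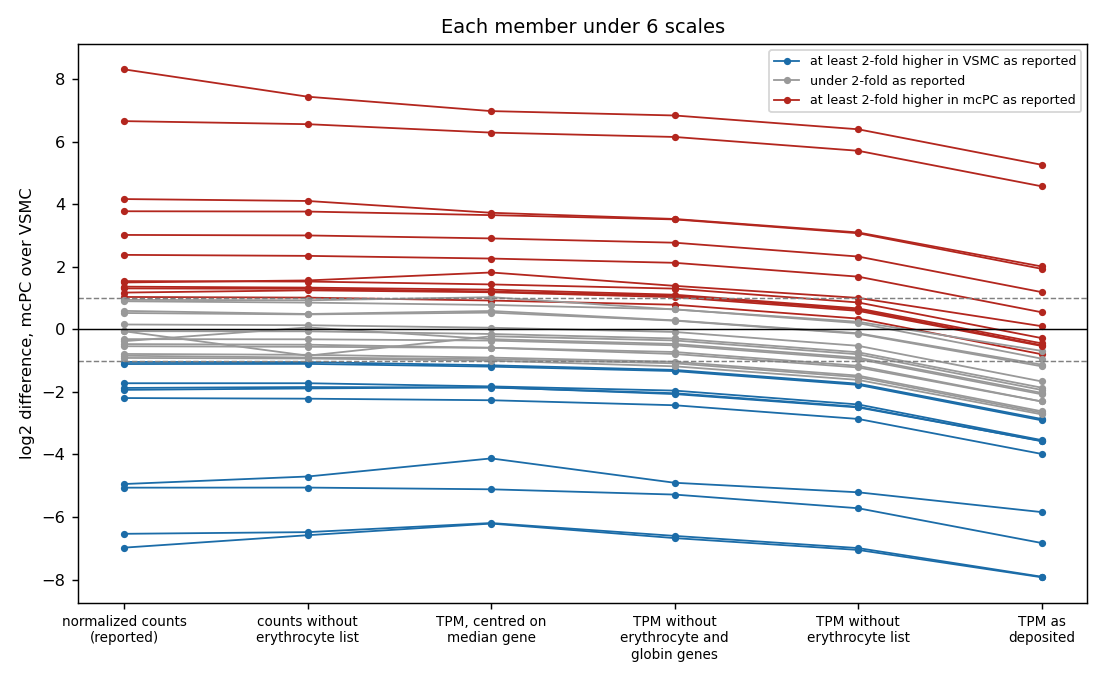
Log2 difference of 36 members (y axis, mcPC over VSMC) under 6 scales (x axis), one line per member, coloured by its side on the normalized counts, with dashed lines at 2-fold. The median shift over all 37 members is -1.81 on TPM as deposited, where Agrn, Nid1, Lamc3, Itga5 and Itgb3 pass below 0.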

How the data were processed

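Before deposit, the authors filtered reads by length and quality in Eoulsan and ran Salmon 0.8.0 (version from the submitters' processing notes) against Ensembl transcripts of the Rnor_6.0 build. Transcript values were added up by gene in tximport, counts were normalized in DESeq2, and a gene was kept if every sample had a read of it. The deposited table gives means of each cell type. Its TPM values are the authors' mean abundances. Its estimated counts are the authors' means per sequencing run, multiplied here by 4 runs to give reads per sample; 69.8% of those of VSMCs and 71.5% of those of mcPCs were whole multiples of 1 read over 12 runs, within 0.01 read. Its signal values are the authors' mean normalized counts, counts divided by factors that take in gene length. Mean effective lengths are also the authors'. Columns with the authors' own fold changes, errors and p-values were not used.

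Differences are log2 ratios of mean normalized counts plus 1. At least 2-fold was taken as a difference, with no test, since the planned test over samples needs values per sample. Intervals are exact conditional (Clopper-Pearson) intervals on the reads of 3 samples, without the pseudocount. Shares of a chain class come from mean TPM, with counting intervals by error propagation. The log2 ratio and its interval were tested on counts simulated with counting error only, without spread between samples. Shares, the other scales and the promoter counts were not tested in this way. Members and lists were chosen with earlier results of these data known. Values are given for the 34 members with at least 5 TPM in either cell type or a 2-fold difference, and also for Itga11, Itgb4 and Itgb8, the other 3. Of each list, the genes with the lowest and highest difference and the most abundant gene are named. By exception, 1 member and 1 listed gene are not reported here, although counts and medians include them, and the plots hold the other 36 members. Alternative scales, filters, pseudocounts (0.1 for TPM and scaled counts) and folds were tried. Promoters were read from the RefSeq table of GRCr8. Protein sequences were not used here. Computations ran in Python 3.11.15 (pandas 2.3.3, numpy 2.4.6), with intervals from scipy 1.17.1 and plots from matplotlib 3.10.9.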

Additional observations from a re-analysis of the deposited data

How the results depend on the processing

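Of the 23 members that differed at least 2-fold, all 23 kept their direction on TPM centred on the median gene, on TPM or counts without the erythrocyte list, on TPM without erythrocyte and further globin genes (added after the table was seen), with no pseudocount and with one of 10, and 18 did on TPM as deposited. On TPM as deposited, where the median of all genes is at -1.72, 23 members were at least 2-fold higher in VSMCs and 5 in mcPCs, the members' median was -1.94, and the reversed members were Agrn at -0.51, Itga5 at -0.45, Itgb3 at -0.53, Lamc3 at -0.28 and Nid1 at -0.79. Leaving out the erythrocyte list (median of all genes -0.63), which misses 3 globin genes, the counts were 16 for VSMCs and 7 for mcPCs, with a median of -0.80, and 5 of the 23 were no longer past 2-fold while 5 others newly were. With the further globin genes left out as well (median of all genes -0.21) the members' median was -0.35. It was -0.22 on centred TPM, -0.42 with genes of at least 0.8 TPM in VSMCs, a filter that removes genes low in VSMCs by construction, and -0.31 without Itgb2 and Itgb7 (added after the table was seen). At 4-fold, 6 members were higher in VSMCs and 6 in mcPCs. Every one of the 23 also had its counting interval wholly past 2-fold. No paired analysis was possible because the table gives means of each cell type, and for the same reason leaving out a replicate, the isolation block and a count model over samples were not run. Counting error is small for the 19 members with at least 1000 reads per sample in both cell types, and the spread between isolations is not known here.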
